A study of Danio rerio with 17 samples.

Results

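A set of 10 genes that mark endothelial cells in zebrafish was followed through the repair of a frozen liver: *kdrl*, *dll4*, *cdh5*, *stab1*, *stab2*, *lyve1b*, *mrc1a*, *pecam1*, *tie1* and *egfl7*. They were taken by name from the gene column of the bulk RNA-seq count table. Of the 10, 5 had an entry among the 8513 in the table (*kdrl*, *dll4*, *cdh5*, *stab1* and *pecam1*), and all 5 passed the filter on low counts that left 8412 entries for testing. The other 5, *stab2*, *lyve1b*, *mrc1a*, *tie1* and *egfl7*, have no values here and were not analysed. The table had been reduced before deposit by a filter that is not given in the sources used here, so the absence of these 5 names says nothing of their expression.

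The libraries came from liver tissue of adult zebrafish that was not sorted by cell type, so every value below is a bulk value over the cells of the tissue taken. Injured fish had the liver touched with a cooled metal probe (cryoinjury) and were sampled 1, 3 or 7 days post-cryoinjury (dpci), with 4 samples at each time, while the 5 sham samples came from fish operated on with a probe at room temperature. According to the methods the fish carried *Tg(fabp10a:NLS-mCherry)*, a reporter of hepatocyte nuclei driven by a hepatocyte promoter and shared by all groups, and the tissue was pooled from several livers, with the injured border kept apart from other lobes, whereas the labels name no region and give only liver, the treatment and a replicate number. The methods describe 3 replicates, each of 3 pooled livers, whereas a supplementary legend of the study counts 4 technical replicates per time. Nothing in the labels says that the replicates of a group were separate pools, so the p-values measure the spread between these samples, which may be technical.

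Endothelial cells line the blood vessels and, in the liver, the sinusoids, the permeable capillaries that run between plates of hepatocytes. They read vascular endothelial growth factor (VEGF) through receptors such as Kdrl, pass Notch signals between neighbours through the ligand Dll4, and hold together through VE-cadherin, the product of *cdh5*, and PECAM-1. Liver sinusoidal endothelial cells are in addition known for scavenging molecules from the blood with stabilin receptors such as Stab1. These roles are background and were not measured here.

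The samples held between 4743533 and 6800961 counts. Levels are given as CPM, the count divided by the library total and scaled to a common size, after trimmed mean of M-values (TMM) scaling, which multiplies each library total by a factor so that most genes stay level between libraries. The geometric mean of that factor was 0.763 in the sham group and 1.41, 1.04 and 0.958 in the groups of 1, 3 and 7 dpci, so the choice of scale matters most for 1 dpci. Against sham, CPM of the plain column totals moved the median of all entries by 0.84, 0.42 and 0.36 on the log2 scale at 1, 3 and 7 dpci, whereas with TMM the median lay between -0.02 and 0.04. All changes below are with TMM unless column totals are named. The library number in the labels was 61 to 64 in sham replicates 1 to 4, 1 in sham replicate 5 and 9 to 33 in the injured samples. Library number and injury therefore cannot be told apart. At 7 dpci, replicates 2 and 4 were labelled 31 and 30 without the letter R of the other labels, and 3 dpci replicate 3 was labelled R31.

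The first question was whether the endothelial genes changed with injury. None of the 5 passed the test in any comparison: 0 of 5 were called at 1 dpci against sham, where 23.9% of all entries were, by edgeR's quasi-likelihood test at a Benjamini-Hochberg adjusted p of at most 0.05 over all entries. With TMM none was past an unadjusted p of 0.05 in that comparison (37.9% of all entries). The study's thresholds of a log2 fold change of 1.5 and an unadjusted p of 0.05 called none with TMM (17.3%). DESeq2 also called none there. By the edgeR test the count at that adjusted p was 0 of 5 at 3 dpci against sham, with a background of 0.0119%. At 7 dpci it was 0 of 5, with a background of 0. It was also 0 of 5 at 3 against 1 dpci, with a background of 11.6%, and 0 of 5 at 7 against 3 dpci, with a background of 0. In these 4 comparisons only *pecam1* at 3 dpci against sham was past an unadjusted p of 0.05 with TMM, beside 11.8%, 9.08%, 29.3% and 7.36% of all entries in the same order. DESeq2 again called none, and the share of all entries that it called was not counted in any comparison. In bulk tissue, fewer endothelial cells and less RNA per endothelial cell cannot be told apart, and neither can a stable level from opposite changes in both.

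**Figure D1:**
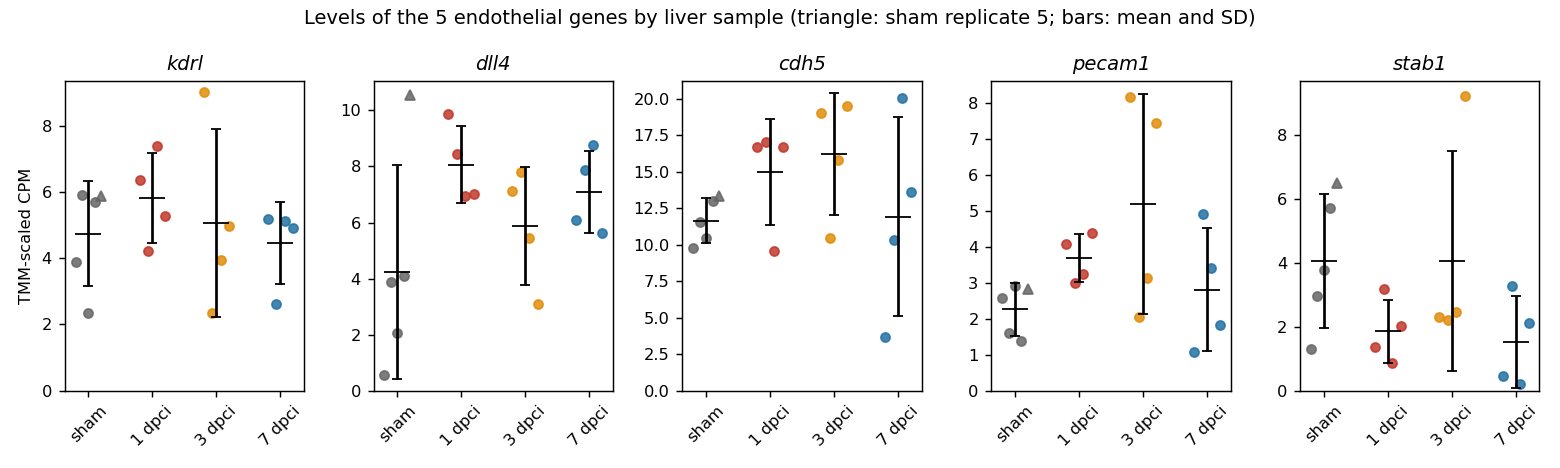
TMM-scaled CPM (vertical axis, from 0) of *kdrl*, *dll4*, *cdh5*, *pecam1* and *stab1* in every sample of sham (5 samples) and of 1, 3 and 7 dpci (4 samples each), with the mean as a horizontal tick and the SD as the bar. Sham replicate 5, drawn as a triangle, has the highest *dll4* of all samples at 10.5, and the 4 samples of *pecam1* at 1 dpci lie above every sham sample, as in 10.9% of all entries.

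*dll4*, the Notch ligand of sprouting and arterial endothelium, had the widest spread among the sham samples. Its level was 0.553, 3.86, 2.04, 4.11 and 10.5 CPM in sham replicates 1 to 5, from 3 to 52 counts. At 1 dpci it was 9.86, 8.44, 6.94 and 7.03 CPM, at 3 dpci 7.13, 7.80, 5.44 and 3.08 CPM, and at 7 dpci 6.10, 7.88, 8.76 and 5.61 CPM. Every 1 dpci and 7 dpci sample was above sham replicates 1 to 4 and below sham replicate 5, so the groups overlapped through that single library. The mean was 4.22 ± 3.82 CPM in sham (SD, n = 5) and 8.07 ± 1.38, 5.86 ± 2.11 and 7.09 ± 1.48 CPM in the injured groups in order of time (n = 4 each). The log2 fold change against sham was 0.92 ± 0.51 (SE) at 1 dpci, with an adjusted p of 0.195 by edgeR's quasi-likelihood test. Without sham replicate 5 it was 1.61 with an adjusted p of 0.0180 in the same test, and with sham replicate 5 as the only sham sample it was -0.40. The call and the direction of *dll4* at 1 dpci thus changed with that single control library. The changes at 3 dpci (0.46 ± 0.51) and 7 dpci (0.73 ± 0.51) were within their intervals of zero, from -0.62 to 1.54 and from -0.34 to 1.81.

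*kdrl*, which encodes a VEGF receptor and is widely used as a marker of blood vessel endothelium, had no called change against sham at any time with TMM. Its intervals were wide, reaching 1.09 at 1 dpci, so a stable level is not shown. It measured 3.87, 5.91, 2.33, 5.70 and 5.88 CPM in the sham samples and 6.37, 4.22, 7.38 and 5.27 CPM at 1 dpci. At 3 dpci it measured 9.01, 2.36, 3.95 and 4.97 CPM and at 7 dpci 5.19, 2.63, 5.13 and 4.91 CPM. The groups overlapped throughout, and the highest and nearly the lowest *kdrl* level of the series both fell at 3 dpci. Against sham, the log2 fold changes at 1, 3 and 7 dpci were 0.29 ± 0.38 (SE), 0.08 ± 0.38 and -0.09 ± 0.38, with 95% intervals of -0.51 to 1.09, -0.72 to 0.89 and -0.90 to 0.72. Leaving out 3 dpci replicate 1, the sample at 9.01 CPM, turned the 3 dpci value to -0.33, and without sham replicate 3, the lowest sham sample, it was -0.07. Leaving out 7 dpci replicate 2, the sample at 2.63 CPM, turned the 7 dpci value to 0.09. The table also holds an entry named *kdr*, the other VEGF receptor of this type in zebrafish. It averaged 4.39 ± 2.13 CPM in sham and 3.56 ± 0.742 CPM at 1 dpci, a log2 fold change of -0.29 that was not called. How reads shared by similar genes were counted is not given in the sources used here.

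*cdh5*, which encodes the adhesion molecule of endothelial junctions, had the most counts of the 5 genes, between 24 and 165 per sample. Its level was 9.78, 11.6, 10.5, 12.999 and 13.4 CPM in sham, and 16.7, 17.1, 9.55 and 16.7 CPM at 1 dpci. At 3 dpci it was 19.1, 10.5, 15.8 and 19.5 CPM, and at 7 dpci 3.66, 10.3, 20.1 and 13.6 CPM. At 1 dpci 3 of the 4 samples were above every sham sample, as were 3 of 4 at 3 dpci, while 1 dpci replicate 3 lay below every sham sample. The 7 dpci samples spread from the lowest to the highest level of the series. Its log2 fold changes against sham were 0.36 ± 0.36 (SE), 0.48 ± 0.36 and 0.03 ± 0.36 at 1, 3 and 7 dpci, with adjusted p-values of 0.484, 0.643 and 0.990 in edgeR's quasi-likelihood test. The 7 dpci value fell to -0.34 without 7 dpci replicate 3 and was -0.04 without 7 dpci replicate 4 or sham replicate 1 and -0.01 without sham replicate 3.

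*pecam1*, listed in RefSeq as *pecam1a* and encoding another adhesion molecule of endothelial junctions, had the largest point estimate of the 5 at 3 dpci. It measured 2.58, 1.59, 2.91, 1.37 and 2.84 CPM in sham, from 6 to 14 counts, and 4.09, 2.99, 3.25 and 4.40 CPM at 1 dpci. All 4 samples at 1 dpci were above every sham sample, which was also true of 10.9% of all entries in that comparison. At 3 dpci it measured 8.17, 2.06, 3.13 and 7.46 CPM and at 7 dpci 1.07, 4.92, 3.42 and 1.82 CPM. Replicates 1 and 4 carried the 3 dpci mean, and replicate 2 lay within the sham range. Relative to sham, *pecam1* differed by 0.70 ± 0.48 (SE), 1.20 ± 0.48 and 0.30 ± 0.49 on the log2 scale at 1, 3 and 7 dpci. At 3 dpci the unadjusted p was 0.0227 and the adjusted p 0.327 by edgeR's quasi-likelihood test, with 3 of 4 samples above every sham sample and 11.8% of all entries past that unadjusted p. Without 7 dpci replicate 2, the sample at 4.92 CPM, the 7 dpci value was -0.12.

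*stab1*, the scavenger receptor of sinusoidal endothelium that some macrophages also carry in mammals, was the only one of the 5 with a negative change at 1 dpci. It measured 1.29, 2.96, 3.79, 5.70 and 6.49 CPM in sham and 1.36, 3.16, 0.868 and 2.01 CPM at 1 dpci. At 3 dpci it measured 2.31, 2.21, 2.47 and 9.23 CPM, and at 7 dpci 0.458, 3.28, 0.214 and 2.11 CPM. These rest on 1 to 78 counts, and the 7 dpci sample at 0.214 CPM on a single count. One sample at 1 dpci and 2 samples at 7 dpci were below every sham sample, and the groups overlapped at every time. The log2 fold changes against sham were -1.13 ± 0.69 (SE), 0.02 ± 0.66 and -1.38 ± 0.71 at 1, 3 and 7 dpci, with 95% intervals of -2.60 to 0.33, -1.37 to 1.41 and -2.87 to 0.11. The adjusted p-values in edgeR's quasi-likelihood test were 0.244, 0.995 and 0.577, and at 7 dpci the unadjusted p was 0.0667. The 3 dpci value rested on replicate 4 and was -0.79 without it. It was also -0.21 without sham replicate 1 and -0.07 without sham replicate 2.

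Between successive times, the changes of the 5 genes were likewise not past the test. From 1 to 3 dpci the log2 fold change lay between -0.46 (*dll4*) and 1.15 (*stab1*), with *kdrl* at -0.21, *cdh5* at 0.11 and *pecam1* at 0.49. From 3 to 7 dpci it lay between -1.40 (*stab1*) and 0.28 (*dll4*), with *kdrl* at -0.17, *cdh5* at -0.45 and *pecam1* at -0.89. Several of these signs turned with 1 sample: from 1 to 3 dpci *kdrl* was at 0.02 without 3 dpci replicate 2 and *cdh5* at -0.07 without 1 dpci replicate 3, and from 3 to 7 dpci *kdrl* was at 0.24 without 3 dpci replicate 1 and at 0.01 without 7 dpci replicate 2. Both comparisons use the 3 dpci samples, so their values are not independent.

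The median log2 fold change of the 5 genes against sham was 0.36, 0.46 and 0.03 at 1, 3 and 7 dpci, beside -0.02, -0.01 and 0.04 for all entries tested. At 1 dpci these values depended on the scale. With column totals in place of TMM, 4 of the 5 were called higher at 1 dpci in the same test, where 37.5% of all entries were. These were *dll4* (1.66, adjusted p 0.0236), *pecam1* (1.56, 0.0212), *cdh5* (1.20, 0.0170) and *kdrl* (1.17, 0.0386), while *stab1* was at -0.35. The median of the 5 was then 1.20 beside 0.84 for all entries, so that most of the difference from the TMM value was shared with the whole table. At the study's thresholds, column totals gave 2 of the 5 as higher at 1 dpci, *dll4* and *pecam1*, beside 26.2% of all entries in either direction. At 3 dpci they gave 1 of the 5, *pecam1* (1.62), beside 5.46% of all entries.

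**Figure D2:**
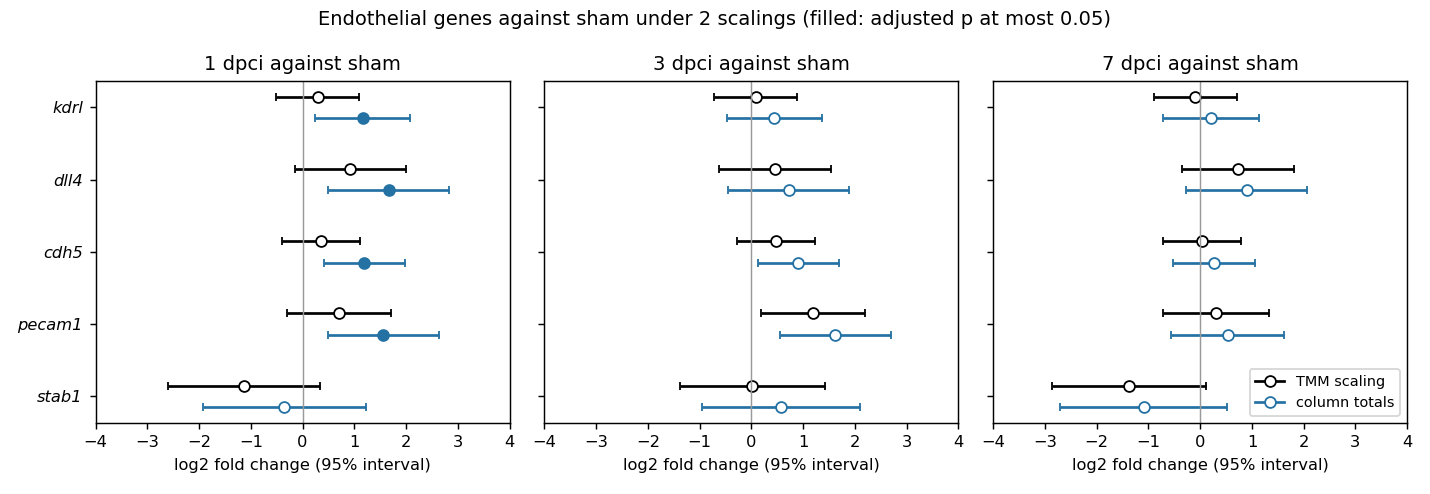
Log2 fold change (horizontal axis) of the 5 genes at 1, 3 and 7 dpci against sham, with 95% intervals, under TMM scaling (black) and column totals (blue). Points are filled where the adjusted p is at most 0.05: with TMM no point is, and with column totals *kdrl*, *dll4*, *cdh5* and *pecam1* are at 1 dpci, with values from 1.17 to 1.66.

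Lists of other genes of the same cells and pathways were then counted, each list including those of the 5 genes that belong to it. These counts depended on the scale, so those with column totals are given first and those with TMM after them. With column totals, where 37.5% of all entries were called higher at 1 dpci, 9 of 18 genes of vascular endothelium, 3 of 8 of sinusoidal, lymphatic and scavenger endothelium, 7 of 13 of VEGF and angiopoietin-Tie signalling, 8 of 17 of Notch signalling and 8 of 12 of adherens junctions were called higher and none lower. With TMM, 4 of the 18 tested genes of vascular endothelium rose at 1 dpci against sham and none fell, where 9.43% of all entries rose and 14.5% fell. *cldn5b*, a claudin of tight junctions, rose from 0.706 ± 0.515 CPM in sham to 5.71 ± 1.14 CPM (log2 fold change 2.98 ± 0.71 SE, adjusted p 0.00726 by edgeR's quasi-likelihood test), with every 1 dpci sample above every sham sample, as in 10.9% of all entries. The sham samples held only 0 to 7 counts of *cldn5b*, and 0 to 8 of *sox7*, given below. *ets1*, which encodes an ETS transcription factor of endothelial and blood cells, rose from 10.8 ± 5.72 to 29.8 ± 10.6 CPM (1.46 ± 0.34, 0.00707), and sham replicate 5 at 20.3 CPM overlapped the injured samples. The calls of *cldn5b* and *ets1* held in each of the 9 fits that left out 1 sample. When the 1 dpci samples, which were closest in pairs, were summed to 2, *ets1* was still called and *cldn5b* was at 3.00 with an adjusted p of 0.0511. *sox7*, a SoxF transcription factor, rose by 2.09 ± 0.65 and *she* by 1.23 ± 0.39 (adjusted p 0.0284 and 0.0310 in the same test). Their calls did not hold throughout: the adjusted p of *she* was 0.0613 to 0.0894 without sham replicate 2 or 4 or 1 dpci replicate 1 or 2, and *sox7* was no longer called without sham replicate 4 (1.87) or 1 dpci replicate 1 (1.93), 3 (2.07) or 4 (2.09). The other 14, *kdr*, *cldn5a*, *sox18* and *clec14a* among them, were not called, and the median of the 18 was 0.18 beside -0.02 for all entries.

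**Figure D3:**
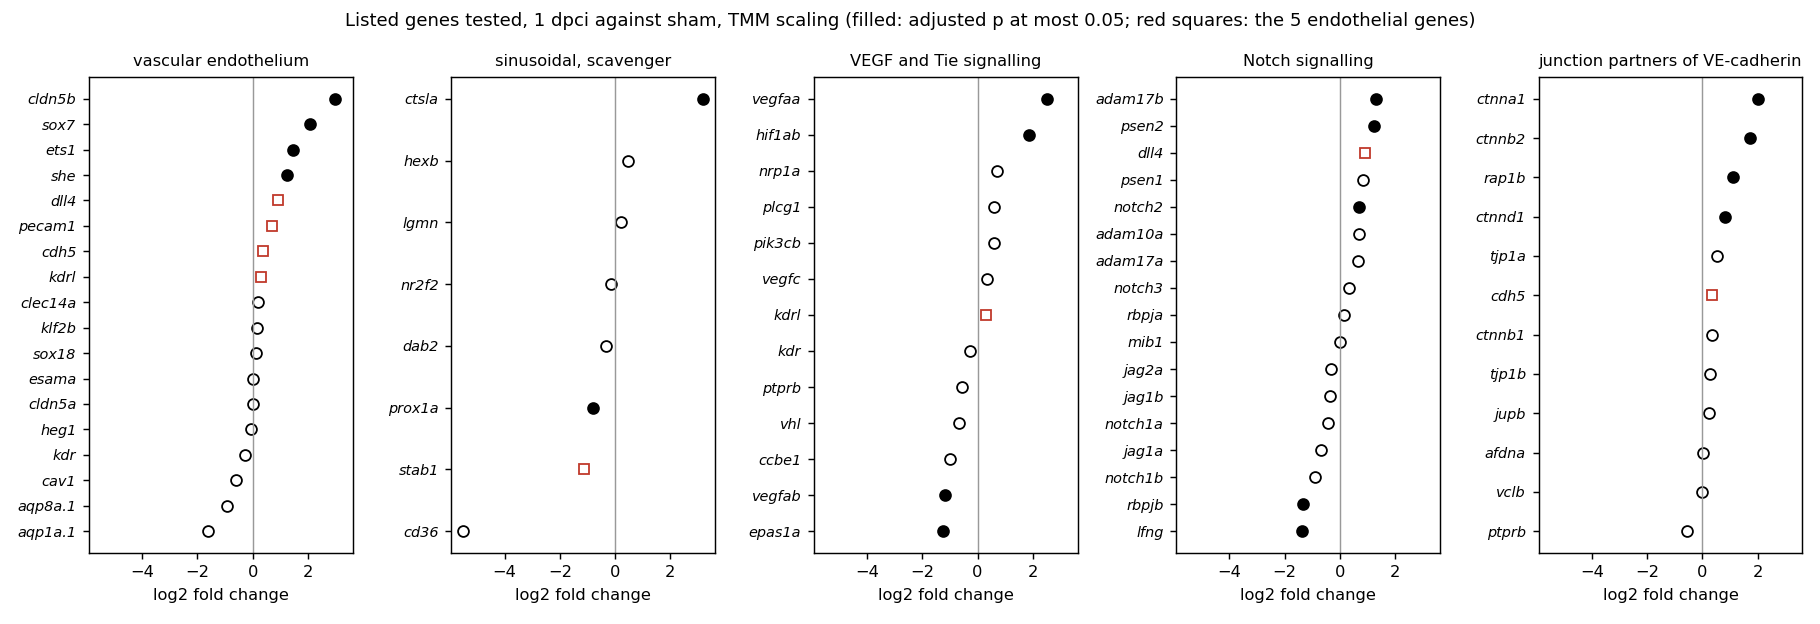
Log2 fold change at 1 dpci against sham with TMM scaling (horizontal axis) of every tested gene in 5 lists, from vascular endothelium (18 genes) to the junction partners of VE-cadherin (12 genes), sorted within each list. Filled points have an adjusted p of at most 0.05, and the red squares, which are the 5 endothelial genes, are all open.

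Of the 8 tested genes of sinusoidal, lymphatic and scavenger endothelium, *stab1* among them, 1 rose and 1 fell at 1 dpci, beside 9.43% and 14.5% of all entries. *ctsla*, a cathepsin protease of lysosomes that many cell types express, rose from 144.3 ± 78.5 to 1315 ± 1035 CPM, by 3.19 ± 0.73 (SE) on the log2 scale (adjusted p 0.00591 by edgeR's quasi-likelihood test), in every fit that left out 1 sample. Its level was 2010 and 2393 CPM in 1 dpci replicates 1 and 2, and 460 and 398 CPM in replicates 3 and 4. *prox1a*, a transcription factor of lymphatic endothelium that hepatocytes also express, fell by 0.81 ± 0.28 with an adjusted p of 0.0472. That call was lost in 6 of the 9 fits that left out 1 sample (adjusted p up to 0.141) and with column totals, where the value was 0.01. The scavenger and lymphatic receptor genes *stab2*, *lyve1a*, *lyve1b*, *mrc1a*, *gpr182* and *flt4* of this list were not among the entries tested.

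Around *kdrl*, the VEGF and angiopoietin-Tie list had 13 tested genes, of which 2 rose and 2 fell at 1 dpci against sham, beside 9.43% and 14.5% of all entries. *vegfaa*, a VEGF ligand, measured 3.14, 1.82, 0, 2.05 and 3.24 CPM in sham and 21.1, 17.2, 4.77 and 5.78 CPM at 1 dpci. All 4 injured samples were above every sham sample, as in 10.9% of all entries, and replicates 1 and 2 were the higher ones. Its log2 fold change was 2.52 ± 0.62 (SE, adjusted p 0.00838 by edgeR's quasi-likelihood test), and from 1 to 3 dpci it changed by -2.59 ± 0.66 (adjusted p 0.0195). The second call was lost without 1 dpci replicate 1 (-2.19) or 2 (-2.38) or 3 dpci replicate 2 (-2.55) or 3 (-2.47). It was also lost when the 1 dpci samples were summed in 2 pairs (-2.63, adjusted p 0.0955 in the same test). *hif1ab*, which encodes a hypoxia-inducible transcription factor, rose from 50.1 ± 12.1 to 181.4 ± 93.2 CPM (1.86 ± 0.32, adjusted p 0.000921 in the same test) and fell to 49.1 ± 10.1 CPM at 3 dpci (-1.88 ± 0.35, adjusted p 0.00321), both in every fit that left out 1 sample. At 1 dpci *hif1ab* was at 233 and 287 CPM in replicates 1 and 2, and at 102 and 104 CPM in replicates 3 and 4.

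The other VEGF ligand with a call, *vegfab*, fell from 60.5 ± 12.5 to 26.6 ± 6.48 CPM at 1 dpci (-1.18 ± 0.33, adjusted p 0.0178 in edgeR's quasi-likelihood test). Its groups did not overlap, and 12.2% of all entries had every 1 dpci sample below every sham sample. *epas1a*, a paralogue of the hypoxia-inducible factor, fell from 51.8 ± 26.2 to 21.7 ± 2.78 CPM (-1.26 ± 0.38, adjusted p 0.0251). Both calls were lost with column totals, where the values were -0.24 and -0.48. Without 1 dpci replicate 1 or 2 *vegfab* was no longer called (adjusted p 0.0531 and 0.0613). *epas1a* was no longer called without sham replicate 5 (-0.93) or without any 1 of the 4 samples of 1 dpci (-1.17 to -1.32).

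Around *dll4*, 17 genes of Notch signalling were tested, of which 3 rose and 2 fell at 1 dpci, beside 9.43% and 14.5% of all entries. The receptor *notch2* (0.69 ± 0.24 SE), the protease *adam17b* (1.31 ± 0.36), which belongs to a family that cleaves Notch receptors, and the gamma-secretase subunit *psen2* (1.23 ± 0.34) rose, with adjusted p-values of 0.0473, 0.0165 and 0.0170 by edgeR's quasi-likelihood test. The glycosyltransferase *lfng* (-1.37 ± 0.37) and *rbpjb* (-1.33 ± 0.47), a paralogue of the Notch transcription factor, fell, with adjusted p-values of 0.0149 and 0.0479, and both calls were lost with column totals (-0.47 and -0.44). Only *lfng* kept its call in all 9 fits that left out 1 sample, and none of the 5 was called when the 1 dpci samples were summed in 2 pairs (adjusted p 0.0758 to 0.175, with *lfng* at -1.34 and 0.0969). *notch2* and *rbpjb* lost theirs in 8 of the 9, with adjusted p-values up to 0.106 and 0.130. *adam17b* lost it without 1 dpci replicate 2 (1.00) and *psen2* without 1 dpci replicate 1 (1.09) or 2 (1.03). The ligands *jag1a*, *jag1b* and *jag2a* and the receptors *notch1a*, *notch1b* and *notch3* were not called in any comparison.

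Around *cdh5*, 12 genes of adherens junctions were tested, of which 4 rose and none fell at 1 dpci, beside 9.43% and 14.5% of all entries. *ctnna1*, which encodes an alpha-catenin linking cadherins to actin, rose from 16.4 ± 6.41 to 66.8 ± 4.18 CPM (2.03 ± 0.43 SE, adjusted p 0.00341 by edgeR's quasi-likelihood test). *ctnnb2*, a beta-catenin gene, rose from 15.7 ± 4.24 to 51.4 ± 5.07 CPM (1.71 ± 0.26, adjusted p 0.000384). Neither gene's groups overlapped, and 10.9% of all entries had every 1 dpci sample above every sham sample. Both calls held in each of the 9 fits that left out 1 sample. The small GTPase *rap1b* (1.11 ± 0.30, adjusted p 0.0150) was not called without 1 dpci replicate 1 (0.91), nor *ctnnd1*, the p120-catenin gene (0.81 ± 0.25, adjusted p 0.0269), without sham replicate 2 (0.78) or 4 (0.65) or 1 dpci replicate 3 (0.82) or 4 (0.74). These catenins serve junctions of epithelial cells, hepatocytes included, as well as those of endothelium. *cdh5* itself was at 0.36 in the same comparison.

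At 3 against 1 dpci, where 7.66% of all entries rose and 3.91% fell, *ctnna1* (-1.84 ± 0.46 SE) and *ctnnb2* (-0.99 ± 0.27) fell, with adjusted p-values of 0.0174 and 0.0290 in edgeR's quasi-likelihood test. The call of *ctnna1* was lost without 3 dpci replicate 1 (-1.74), 2 (-1.60) or 3 (-1.65), and that of *ctnnb2* in 6 of the 8 fits that left out 1 sample, with adjusted p-values up to 0.0917. *cav1*, which encodes caveolin 1 of endothelial and other cells, rose by 1.97 ± 0.51 (adjusted p 0.0209). Its groups did not overlap, and 11.8% of all entries had every 3 dpci sample above every 1 dpci sample. *cav1* was not called with column totals (1.45, adjusted p 0.0878), without 1 dpci replicate 1 (1.88) or 2 (1.75), or without 3 dpci replicate 2 (1.88) or 3 (1.46). When the 1 dpci samples were summed in 2 pairs, *ctnna1* (-1.86), *ctnnb2* (-1.02) and *cav1* (1.95) were not called, with adjusted p-values of 0.103, 0.141 and 0.151 in the same test. No gene of these 5 lists was called at 3 or 7 dpci against sham or at 7 against 3 dpci, where the backgrounds were 0.0119%, 0 and 0.

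Markers of other liver cells moved at 1 dpci beside these values, and their part in the results was not tested. With TMM, 9.43% of all entries rose and 14.5% fell in this comparison. Of 18 hepatocyte genes 9 fell and 2 rose, and their summed level was 130963 to 232656 CPM in sham and 60696 to 78179 CPM at 1 dpci. Of 10 genes of stellate and mural cells 5 fell, with sums of 80.5 to 204.5 and 35.3 to 75.0 CPM, and of 6 red cell genes 4 fell, with sums of 1815 to 13678 and 529.5 to 1001 CPM. Of 11 leukocyte genes 2 rose and 2 fell, and the sums were 131.5 to 482.5 and 63.5 to 101.2 CPM. Much of the leukocyte sums in sham was *cd74a*, at 80.2 to 346.8 CPM in sham and 1.76 to 12.3 CPM at 1 dpci. *mmp13a* went the other way, from 2.33 to 6.64 CPM in sham to 12.8 to 29.4 CPM at 1 dpci, so the sum does not stand for every leukocyte gene. Of 5 genes of biliary epithelium 1 rose and none fell, and their sums were higher without overlap, at 143.7 to 224.7 CPM in sham and 276.0 to 340.1 CPM at 1 dpci. The summed level of the 18 vascular endothelial genes was 119.3 to 283.2 CPM in sham and 159.3 to 194.8 CPM at 1 dpci, so these ranges overlapped. With TMM, the hepatocyte, stellate and mural, red cell and leukocyte sums were lower and the biliary sums higher without overlap. Sums were not taken with column totals, so whether these ranges part on that scale was not tested. The median log2 fold change was -0.91 for hepatocyte genes and 0.18 for vascular genes with TMM. With column totals it was -0.02 and 1.06, beside 0.84 for all entries. The lists of thrombocytes (1 gene tested) and vitellogenins (2 genes) had no call, and their sums overlapped. With column totals, 37.5% of all entries were called higher and 5.62% lower at 1 dpci. The hepatocyte genes then had 2 calls higher and 4 lower, stellate and mural genes 2 and 3, and red cell genes 0 and 3. Leukocyte genes had 3 and 2, biliary genes 2 and 0 and vitellogenins 1 and 0.

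The second question was whether the 5 genes varied together from sample to sample. For each pair, the log2 CPM of the 17 samples was compared after each condition's mean had been removed. Of the 10 pairs, 8 had a positive Pearson's r and none passed the test: the median r was 0.208 with a range of -0.165 to 0.558, and no pair had a permutation p of at most 0.05, unadjusted or adjusted. The samples share library depth and the TMM factor, and low counts add noise of their own.

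The highest r was that of *cdh5* with *pecam1*, both genes of endothelial junctions. It was 0.558 (two-sided permutation p = 0.0829 within condition, adjusted p 0.709 over 10 pairs), and Spearman's rho was 0.488 (permutation p = 0.102, adjusted p 0.812). Without the 2 samples farthest from the median of *cdh5*, 7 dpci replicates 1 and 3, r was 0.364, and without 7 dpci replicate 1 alone it was 0.323, so part of the relation rested on the library with the lowest *cdh5*. Among all other entries, 0.892% had a higher r with *pecam1* than *cdh5* had, and 4.04% had a higher r with *cdh5* than *pecam1* had. This pair was picked as the highest of the 10. For the other pairs that share ran from 14% (for *stab1* with *pecam1*) to 70.7% (for *kdrl* with *stab1*). With the condition means kept, r was 0.640 and its adjusted p 0.0496, the single pair past the threshold in that form, which mixes differences between conditions with those between samples.

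*kdrl* and *dll4* had an r of 0.239 (permutation p = 0.446, adjusted p 0.709) and a rho of 0.338 (p = 0.268, adjusted p 0.860), and r was 0.325 without the 2 samples farthest from the median of *kdrl*. The 2 pairs with a negative r were *kdrl* with *stab1* (-0.165) and *dll4* with *pecam1* (-0.0749). *cdh5* with *stab1* had an r of 0.284, which was 0.617 without 7 dpci replicates 1 and 3, while *dll4* with *stab1* went from 0.227 to -0.370 without sham replicates 1 and 5. Several of these values therefore turned on 2 samples, and in no case was the r over all 17 samples past the test.

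**Figure D4:**
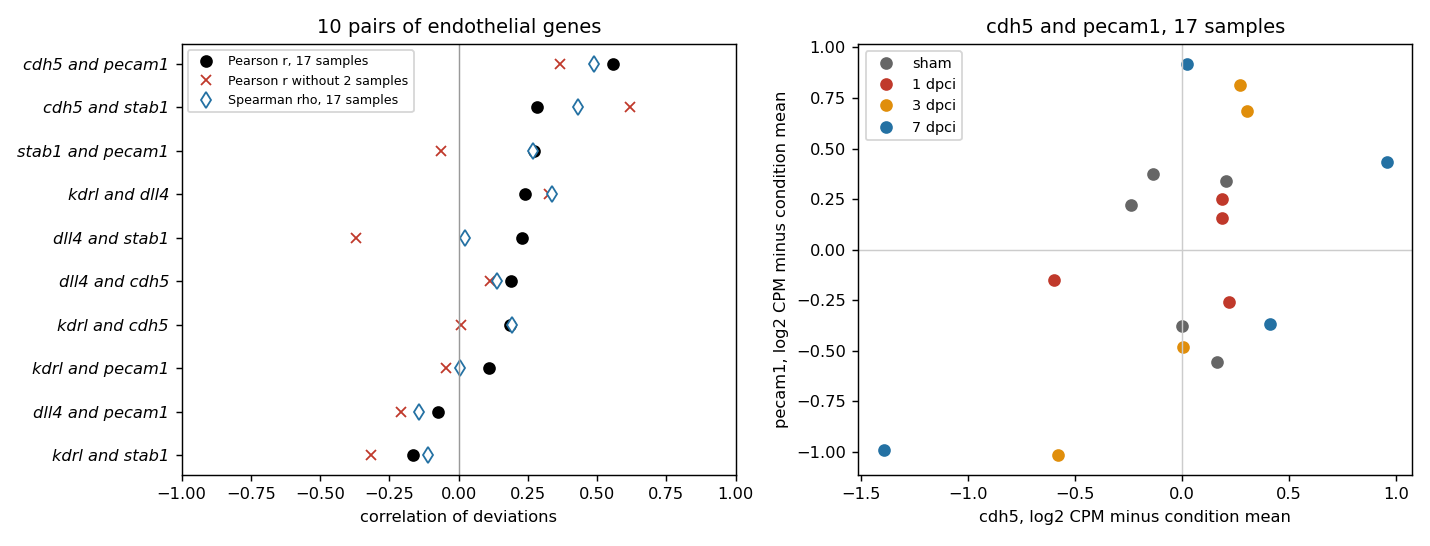
Left, Pearson's r over 17 samples (black), r without the 2 samples farthest from the median of the first gene (red crosses) and Spearman's rho (blue) for the 10 pairs, from -0.165 for *kdrl* with *stab1* to 0.558 for *cdh5* with *pecam1*. Right, deviations of *cdh5* and *pecam1* from their condition means in log2 CPM for each sample, where the lowest point for *cdh5* is 7 dpci replicate 1.

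The genes whose deviations were most like those of each endothelial gene came from outside the lists. By Pearson's r over the 17 samples, and as a description, these were *sik3* (0.893), *mark2a* (0.857) and *dennd6aa* (0.846) for *kdrl*, and *plagx* (0.880), *slc48a1a* (0.836) and *tcp11l2* (0.827) for *dll4*. For *cdh5* they were *cep350* (0.853), *RF01241* (0.840) and *plagl2* (0.839), for *stab1* *umad1* (0.842), *nusap1* (0.825) and *ptprk* (0.811), and for *pecam1* *myo9bl* (0.820), *prkcbp1l* (0.766) and *gart* (0.764). With 8411 other entries and 17 samples, the highest of so many values was picked for being high, and these genes are given as the top of the ranking only. The median r with the other tested genes of vascular endothelium was 0.206 for *kdrl*, 0.168 for *dll4*, 0.231 for *cdh5*, 0.136 for *pecam1* and 0.175 for *stab1*, beside medians between -0.0152 and 0.0133 for all entries. That list holds *kdrl*, *dll4*, *cdh5* and *pecam1*, so it repeats pairs given above. Such medians were not particular to it. For *dll4* the median was 0.447 with the 2 vitellogenins, 0.246 with Notch genes and 0.212 with hepatocyte genes. For *pecam1* it was 0.234 with biliary genes and 0.212 with adherens junction genes, *cdh5* among them. For *stab1* it was 0.186 with Notch genes and 0.182 with red cell genes. For *kdrl* and *cdh5* no other list had a higher median. With the 11 leukocyte genes the median r was -0.468 for *cdh5*, -0.362 for *pecam1*, -0.285 for *stab1*, -0.277 for *dll4* and 0.0864 for *kdrl*.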

How the data were processed

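Poly(A) RNA from adult zebrafish liver was sequenced by the authors as stranded libraries. The submitters' processing notes name cutadapt 1.16, HISAT2 2.1.0, featureCounts 1.6.0, limma 3.40.6 and the genome build danRer10, whereas the methods name a later Ensembl genome and edgeR. The strand setting and the filter that gave 8513 entries are not given in the sources used here. The deposited counts are whole reads per gene, and the deposited CPM are those counts divided by the column total (largest difference on recalculation 0.0005). Only the counts were tested.

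Groups follow the condition each label names, sham (n = 5) and 1, 3 and 7 dpci (n = 4 each). In R 4.3.3, a single model of the 17 samples was fitted with edgeR 4.0.16 (filterByExpr, TMM) and tested by quasi-likelihood. Standard errors were taken from the fold change and the F statistic. p-values were adjusted by the Benjamini-Hochberg method over 8412 entries. Log2 CPM for correlations carried a prior count of 2, and p-values came from 100000 permutations within condition (Python 3.11.15, numpy 2.4.6, scipy 1.17.1). Figures were drawn with matplotlib 3.10.9. Alternatives were DESeq2 1.42.0, its size factors, column totals, no filter on low counts, a fit of the 2 groups alone, the replicate number as a block, 1 dpci samples summed in 2 pairs, sham replicate 5 alone as sham, and each sample left out in turn. For the correlations, leaving out each sample other than sham replicate 5 was added after seeing the data.

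The endothelial genes and the gene lists were chosen with earlier results of these data known. All 10 names were to be named where the table holds them, with the 3 entries most correlated with each and every listed gene past the threshold. At 4743533 to 6800961 counts per sample, precision is limited by counting for genes with few reads, as well as by replicate spread. No sequences were printed and no genome coordinates were used.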

Additional observations from a re-analysis of the deposited data

Results flagged for a closer look

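In 3 of the 20 combinations of an endothelial gene and a condition, 1 sample stood apart from the rest of its group by Dixon's test at its 95% critical value, where chance gives about 1 in 20. *cdh5* in 1 dpci replicate 3 was at 9.55 CPM, below the 16.7 to 17.1 CPM of the other 1 dpci samples. *kdrl* in 7 dpci replicate 2 was at 2.63 CPM, below 4.91 to 5.19 CPM. *stab1* in 3 dpci replicate 4 was at 9.23 CPM, above 2.21 to 2.47 CPM. None of the 38 combinations of a called list gene with sham or 1 dpci had such a sample. What set these 3 samples apart was not tested.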

How the results depend on the processing

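The count of endothelial genes called at 1 dpci against sham was 0, and it was 4 with column totals, 1 (*dll4*, 1.65) with the replicate block, and 0 to 1 when 1 sample was left out, the 1 being *dll4* without sham replicate 5. The block gives sham replicate 5 a term of its own, so these 2 results for *dll4* both rest on sham replicates 1 to 4. The shares of all entries called were not counted for the block or for the fits that left out 1 sample. In the other 4 comparisons the count at an adjusted p of at most 0.05 was 0 under every alternative run. With column totals the median of the 5 genes at 1 dpci was 1.20, *prox1a* was at 0.015 at 1 dpci, *kdrl* at 0.21 at 7 dpci and *cdh5* at -0.29 at 3 against 1 dpci. With sham replicate 5 alone as sham, the 1 sham sample was assumed to vary like the other groups. The median of the 5 was then -0.25 at 3 dpci. *kdrl* was at -0.026 and *dll4* at -0.40 at 1 dpci, *kdrl* at -0.25, *dll4* at -0.88 and *stab1* at -0.68 at 3 dpci, and *dll4* at -0.61, *cdh5* at -0.21 and *pecam1* at -0.064 at 7 dpci. Leaving out 1 sample turned the sign of values near zero, over -0.33 to 0.32 for *kdrl* and -0.79 to 0.26 for *stab1* at 3 dpci against sham, -0.26 to 0.093 for *kdrl*, -0.34 to 0.33 for *cdh5* and -0.12 to 0.58 for *pecam1* at 7 dpci against sham, -0.62 to 0.021 for *kdrl* and -0.066 to 0.27 for *cdh5* at 3 against 1 dpci, and -0.43 to 0.24 for *kdrl* at 7 against 3 dpci. The causes were not tested. With condition means kept, 1 pair of genes passed the threshold.

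Of the 19 list calls at 1 dpci against sham, 8 held in every fit that left out 1 sample, and DESeq2 ended none. Column totals ended 5, the replicate block 4 and summing the 1 dpci samples in 2 pairs 13, the last with fewer samples. The fit of the 2 groups alone ended those of *prox1a*, *notch2*, *rbpjb* and *ctnnd1*. With sham replicate 5 alone as sham, calls are not counted, since 1 sham sample has no spread of its own. There *ets1* was at 0.54 and *cldn5b* at 1.98, nearer zero than their 1.46 and 2.98 in the main fit. *ctsla* at 3.86 and *psen2* at 1.83 were further from zero than their 3.19 and 1.23. After summing, the calls of *ets1*, *ctsla*, *vegfaa*, *hif1ab*, *ctnna1* and *ctnnb2* at 1 dpci against sham held. Of the 5 list calls at 3 against 1 dpci, summing ended 4, and that of *hif1ab* held. Replicates with the same number had a median r of their deviations of -0.0178 over 24 pairs, with a range of -0.257 to 0.419. Over 84 pairs with other numbers it was 0.00870, with a range of -0.263 to 0.390. These values show no shared deviation by number but cannot settle whether the numbers pair the samples, which the labels do not say. Sham replicate 5 has no partner in the block, so the sham side of the fold changes in that fit rests on sham replicates 1 to 4.

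The 1 dpci samples were closest in pairs, with r of 0.965 between replicates 1 and 2 and 0.969 between 3 and 4, beside 0.882 to 0.899 across the pairs. Each fit that left out 1 of these samples kept the other of its pair. Whether each pair was 1 pool was not tested. Sham replicate 5 had r of 0.793 to 0.846 with the other sham samples, 0.809 to 0.875 with those of 3 dpci and 0.811 to 0.862 with those of 7 dpci. Among sham replicates 1 to 4, r was 0.836 to 0.879. The TMM factor of sham replicate 5 was 1.03, beside 0.608 to 0.857 in the other sham samples. What set this library apart was not tested.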

Other observations

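*esm1*, which encodes endothelial cell-specific molecule 1 and in mammals marks sprouting endothelium, was in none of the lists. It was chosen after its values were seen, among the 10 tested entries whose deposited name holds the word endothelial. It averaged 0.382 ± 0.395 CPM in sham (0 to 5 counts), 1.54 ± 1.49 CPM at 1 dpci, 7.90 ± 5.90 CPM at 3 dpci (11 to 80 counts) and 1.56 ± 2.71 CPM at 7 dpci. Every 3 dpci sample was above every sham sample, as in 2.28% of all entries, and the log2 fold change was 4.26 ± 1.18 (SE) with an adjusted p of 0.174 by edgeR's quasi-likelihood test. DESeq2's Wald test gave an adjusted p of 0.0161, and over the fits of the edgeR test that left out 1 sample the adjusted p was 0.129 to 0.336. The edgeR test called 0.0119% of all entries in this comparison, and the share that DESeq2 called was not counted.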
